A study of Homo sapiens with 24 samples.

Results

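Lonidamine was compared with vehicle in BXPC3 cells, an established human pancreatic cancer line of ductal, keratin-rich character, by RNA sequencing. The comparison was defined by the sample labels and used 6 of the 24 libraries of the series, 3 with 300 uM lonidamine for 24 h and 3 with vehicle for 24 h, and it was carried out on every gene of the count table. Of 25168 genes listed, 12920 passed the filter on low counts and were tested. The other BXPC3 libraries received SR4, a second compound known here by its code name, at 5 uM, or SR4 and lonidamine together, and the same 4 groups of 3 were collected in PANC1, another pancreatic cancer line. The medium of every group, vehicle included, was DMEM of low glucose content supplemented with 10% fetal bovine serum. Each line is a single culture model, and the labels do not say whether replicates came from separate cultures, so the p-values reflect variation among these libraries alone, and that variation may be technical.

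Lonidamine is an indazole carboxylic acid known as an inhibitor of the mitochondrial pyruvate carrier, of the plasma membrane monocarboxylate transporters that export lactate, and of succinate dehydrogenase (complex II of the respiratory chain). Inhibition of lactate export and of mitochondrial respiration is known to acidify cells and to lower their supply of ATP and of aspartate. Cells sense mitochondrial and amino acid stress through the integrated stress response, in which phosphorylation of the initiation factor eIF2 lowers general translation while the transcription factor ATF4 is made and switches on genes for amino acid uptake and synthesis. Loss of energy or nucleotides is also known to hold cells before DNA replication, a step governed by the RB and E2F proteins.

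The vehicle libraries held 10485712 to 11470973 counted reads and the lonidamine libraries 9715462 to 10514227. Values are given as CPM, the usual depth-scaled read count, computed on the TMM-scaled total of each library, in the order of replicates 1, 2 and 3, and errors of log2 changes are standard errors from edgeR's quasi-likelihood fit to the 12 BXPC3 libraries. Adjusted p is the Benjamini-Hochberg value over all tested genes from that test, and a gene was called at an adjusted p under 0.05. Among 12920 tested genes, 4502 rose (34.8%) and 4221 fell (32.7%), so more genes were called than not. Changes of at least 2-fold were fewer and leaned downward: 695 genes rose (5.38%) and 1254 fell (9.71%) by that much. All 3 lonidamine libraries lay above all 3 vehicle libraries for 4611 genes (35.7%) and below them for 4310 (33.4%). The median log2 change over all tested genes was 0.03. The shares called among all tested genes, 34.8% higher and 32.7% lower, are the background for each list count below. Lonidamine replicate 3 stood somewhat apart: the chi-square per degree of freedom between libraries was 1.312 for lonidamine replicates 1 and 2, against 2.96 and 2.871 for either of them with replicate 3, and 2.407 to 2.628 among the vehicle libraries. Removing it left the number of genes called in each direction within 1.5 times the full value.

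**Figure D1:**
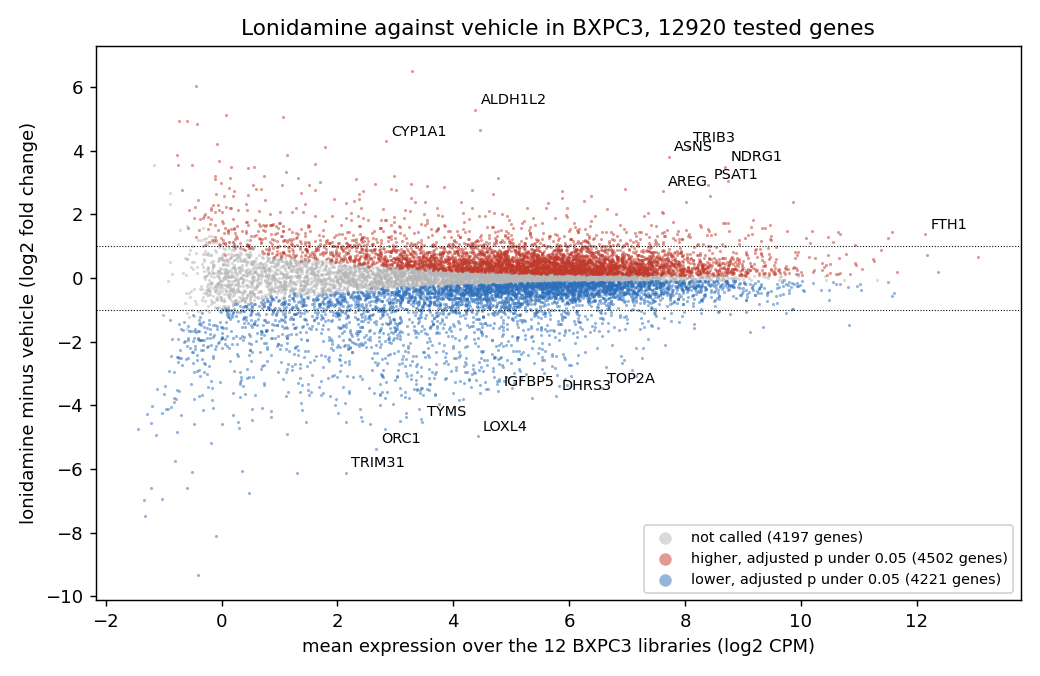
Log2 fold change of lonidamine over vehicle (vertical axis) against mean expression over the 12 BXPC3 libraries in log2 CPM (horizontal axis), 1 point a gene, with dotted lines at a 2-fold change. The large changes above 2-fold are more often downward (1254 genes) than upward (695 genes), and TRIB3, ASNS and NDRG1 are among the labelled rises (log2 4.10, 3.81 and 3.50).

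Markers of ductal epithelium were expressed. Of 10 ductal line markers, 9 were tested, and their summed level was 6125 to 6638 CPM with vehicle and 4577 to 4749 CPM with lonidamine. Keratin 7 (KRT7) read 1940.4, 1844 and 1786 CPM in the vehicle libraries and 1164, 1139 and 1142 CPM with lonidamine, a log2 change of -0.69 ± 0.03 (adjusted p = 5.0e-17), while the adhesion protein gene EPCAM read 224, 211 and 205 CPM against 223, 231 and 229 CPM with overlapping groups, a call (adjusted p = 0.038) that was lost under 8 of the 11 alternatives. Markers of other cell types were low: 10 of 12 immune cell markers did not pass the filter and the list summed to 22.9 to 24.98 CPM with vehicle and 27.01 to 30.9 CPM with lonidamine, most of it from the lysosomal gene CD68. The leukocyte marker PTPRC was among those 10, and 1 marker of the list was at 0 in the vehicle group and 4 in the lonidamine group. The fibroblast and stellate list summed to 35.4 to 35.6 CPM with vehicle and 22.8 to 25.6 CPM with lonidamine, and the acinar and endocrine list to at most 0.621 and 1.70 CPM. The endothelial list summed to 12.5 to 13.7 CPM with vehicle and 1.36 to 1.85 CPM with lonidamine, and its 3 tested members all fell. VE-cadherin (CDH5), at 8.08, 7.08 and 8.43 CPM with vehicle, had 0 reads in all 3 lonidamine libraries against 264 with vehicle. Set against a floor of 3 counts over the lonidamine group, CDH5 was at least 78.9-fold lower, counting error only.

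The genes for the proteins that lonidamine is known to bind, their partners and HK2 mostly changed by less than 2-fold. Of 13 such genes 4 rose, 4 fell and 5 were not called, with a median log2 change of 0.05. SLC16A1, which encodes the lactate transporter MCT1, read 198, 191 and 201 CPM with vehicle and 248, 264 and 258 CPM with lonidamine, and SLC16A3, which encodes MCT4, read 115, 108 and 106 against 132, 139 and 133 CPM. Both groups of both genes were separate, and the log2 changes were 0.38 ± 0.04 (adjusted p = 9.4e-10) and 0.30 ± 0.05 (adjusted p = 2.8e-06). SLC16A7, encoding MCT2, went the other way at -0.48 ± 0.10, and the shared chaperone of these carriers, basigin (BSG), gave 0.05 ± 0.03 and was not called. Of the pyruvate carrier subunits, MPC2 fell (log2 -0.45 ± 0.10) and MPC1 was not called (log2 0.26 ± 0.15). Of the succinate dehydrogenase subunits, SDHA was slightly higher (log2 0.15 ± 0.04), SDHC and SDHD were lower (log2 -0.24 ± 0.06 and -0.50 ± 0.05) and SDHB was not called (adjusted p = 0.054). Hexokinase 2 (HK2), which phosphorylates glucose on its entry into glycolysis, was the largest change of the group, from 90.7, 82.7 and 90.7 CPM to 195, 189 and 191 CPM.

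Among 15 tested genes of pH and bicarbonate handling, 6 rose and 6 fell, while 34.8% of all tested genes rose and 32.7% fell. The median log2 change of the list was 0.06. In it 1 gene fell at least 2-fold, and the lowest log2 change was -2.31. The genes given next are both among those that rose. The sodium-bicarbonate cotransporter gene SLC4A7 rose from 64.5, 64.8 and 71.99 to 126, 132 and 126 CPM (log2 0.93 ± 0.05, adjusted p = 1.4e-14). The anion exchanger gene SLC26A6 rose by 1.01 ± 0.10 on the log2 scale. In both genes every lonidamine library was above every vehicle library.

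Glycolysis was split. Of 22 genes of glucose uptake and glycolysis 7 rose and 11 fell, with a median log2 change of -0.17. Among those that fell, PGAM1 (phosphoglycerate mutase) went from 312, 290.3 and 295 CPM to 142, 141 and 139.8 CPM, LDHA (lactate dehydrogenase A) from 968, 976 and 974 to 480.2, 464 and 445 CPM and PKM (pyruvate kinase) from 4645, 4587 and 4589 to 3214, 3164 and 3011 CPM. Their log2 changes were -1.09 ± 0.04 (adjusted p = 1.2e-18), -1.07 ± 0.03 (adjusted p = 3.7e-20) and -0.56 ± 0.03 (adjusted p = 7.7e-17), and no lonidamine library reached a vehicle library. The rises were HK2, the glucose transporter SLC2A3 (log2 1.28 ± 0.21, from at most 1.86 CPM) and the fructose bisphosphate regulator PFKFB2 (log2 0.49 ± 0.06) among others. In pyruvate metabolism 4 of 18 rose and 7 fell. PCK2, the mitochondrial enzyme that turns oxaloacetate into phosphoenolpyruvate, rose from 26.2, 25.5 and 26.5 CPM to 157, 156 and 155 CPM (log2 2.58 ± 0.06, adjusted p = 9.3e-24), and ACSS2, which makes acetyl-CoA from acetate, from 60.5, 58.4 and 56.01 to 125, 124 and 128 CPM (log2 1.11 ± 0.04).

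Most nuclear genes of mitochondrial respiration fell by modest amounts. In the tricarboxylic acid cycle 15 of 16 tested genes fell and 0 rose, in complex I 28 of 38 fell and 0 rose, in complexes III and IV 17 of 20 fell and 0 rose, and in ATP synthase 15 of 15 fell. The median log2 changes were -0.27, -0.33, -0.31 and -0.48, against 0.03 for all genes, of which 32.7% fell. These lists did not count the succinate dehydrogenase (complex II) subunit genes SDHA and SDHB, given above among the lonidamine targets. SDHA rose slightly and SDHB was not called, while SDHC and SDHD fell. Citrate synthase (CS) went from 335, 321 and 319.5 CPM to 219, 212 and 221 CPM, a log2 change of -0.58 ± 0.04 (adjusted p = 1.4e-13). The NADP-dependent isocitrate dehydrogenase IDH2 went from 27.9, 26.1 and 26.8 to 13.3, 13.02 and 14.2 CPM and was the largest fall of the cycle. ATP5A1, the alpha subunit of ATP synthase, went from 497, 487 and 485 to 324, 321 and 316 CPM (log2 -0.61 ± 0.03), and the complex I subunit NDUFS5 from 97.8, 97.8 and 94.5 to 67.6, 64.4 and 63.6 CPM (log2 -0.57 ± 0.05). The count table lists 0 genes of the mitochondrial chromosome, so subunits encoded there were not analysed here. Mitochondrial ribosomal proteins fell in 25 of 43 cases, MRPL16 among them (log2 -0.90 ± 0.08), and rose in 4. The mitochondrial chaperones and proteases did not share a direction (4 of 16 rose, 5 fell): the matrix protease LONP1 rose from 62.2, 63.01 and 63.6 to 130.2, 131 and 123 CPM and the chaperone HSPE1 fell by 0.52 on the log2 scale.

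Genes of the integrated stress response rose far above the median of all genes. Of its 20 tested regulators and effectors 16 rose and 4 fell, with a median log2 change of 1.49. ATF4 itself read 280.3, 271 and 263 CPM with vehicle and 664, 656 and 633 CPM with lonidamine, a log2 change of 1.26 ± 0.03 (adjusted p = 1.4e-21). TRIB3, a pseudokinase that restrains ATF4 (chr20:380760-397559 in GRCh38.p14), read 25.3, 27.3 and 22.1 against 424, 437 and 421 CPM. The glutathione-degrading enzyme gene CHAC1 read 4.87, 6.71 and 5.77 against 46.2, 52.4 and 54.7 CPM, and PPP1R15A, whose product returns eIF2 to its active form, 94.5, 99.3 and 101 against 315, 313 and 305 CPM. Every lonidamine library lay above every vehicle library for these genes, and the log2 changes of the last 3 were 4.10 ± 0.05, 3.14 ± 0.11 and 1.66 ± 0.04. The ATF4 partner CEBPG (1.64 ± 0.04), the secreted stress hormone GDF15 (2.43 ± 0.07), the mTORC1 inhibitor SESN2 (2.21 ± 0.07) and ATF3 (1.86 ± 0.13) also rose on the log2 scale. The 4 that fell were the eIF2 subunit gene EIF2S1, the transcription factor ATF5 (log2 -0.81 ± 0.05) and 2 of the kinases that phosphorylate eIF2. Of these kinases EIF2AK2, itself an interferon-induced gene, fell from 260.4, 243 and 256 to 131, 129 and 129 CPM. EIF2AK1 fell by a log2 change of -0.14 ± 0.04. The eIF2 kinase genes EIF2AK3 and EIF2AK4 rose, by log2 changes of 0.81 and 0.24.

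Many genes of amino acid transport, amino acid synthesis and tRNA charging rose too. In the transporter list 13 of 18 tested members rose and 3 fell, with a median log2 change of 1.09. SLC7A11, the cystine importer, went from 85.3, 82.2 and 93.7 CPM to 748, 722 and 691 CPM (log2 3.05 ± 0.05, adjusted p = 1.6e-26), and SLC7A5, the large neutral amino acid carrier, from 448, 429 and 449 to 2329.8, 2355 and 2255 CPM (log2 2.39 ± 0.04). Its partner chain SLC3A2 and the glutamine carriers SLC38A1 and SLC38A2 rose by 1.74, 1.26 and 1.28. SLC6A14 fell, from 43.4, 48.1 and 41.7 to 22.2, 19.6 and 21.2 CPM. In the serine and one-carbon list 10 of 16 tested members rose and 5 fell, with a median log2 change of 0.97. The serine synthesis enzymes PHGDH and PSAT1 rose from 70.2, 67.02 and 62.4 to 269, 254 and 254 CPM and from 95.5, 101 and 95.1 to 745, 755 and 730.3 CPM. The mitochondrial folate enzymes SHMT2 (1.34), MTHFD2 (1.502) and ALDH1L2 (5.29) rose on the log2 scale, but another, MTHFD2L, fell (-0.51). The cytosolic enzymes SHMT1 and MTHFD1 fell, from 29.2, 29.6 and 31.7 to 8.19, 10.4 and 8.95 CPM and from 336, 326 and 339 to 109, 112 and 110.3 CPM, and the cytosolic ALDH1L1 was not called (-0.08). In the list of enzymes for asparagine, glutamate and proline, 7 of 16 rose and 5 fell: asparagine synthetase (ASNS), glutamate-pyruvate transaminase GPT2 and PYCR1 rose by 3.81, 1.96 and 1.45, and glutamine synthetase GLUL fell from 617, 627 and 617 to 224, 239 and 229 CPM. Of 16 cytosolic tRNA synthetase genes 10 rose and 2 fell (median 0.55), with AARS at 129, 127 and 129 CPM with vehicle and 390.3, 400.3 and 386 CPM with lonidamine and HARS lower by a log2 change of -0.29 ± 0.05.

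Some of these genes hold in their promoters the amino acid response motif TGATGNAA, the composite site that ATF4 and C/EBP proteins are known to bind. The promoters of 3 that rose and hold it are shown, chosen after their values were seen, with ASNS first because it is the gene in which such a site is best known. Each line gives 120 bases of RefSeq GRCh38.p14 from the 250 bases before the gene's start, 5′ to 3′ on the gene's strand, with the motif or its reverse complement in capitals. No other motif searched overlapped these sites.
ASNS, chr7:97872413-97872532, strand -: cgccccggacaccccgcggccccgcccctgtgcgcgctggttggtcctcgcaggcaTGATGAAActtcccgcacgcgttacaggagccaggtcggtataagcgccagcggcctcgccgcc
CHAC1, chr15:40953221-40953340, strand +: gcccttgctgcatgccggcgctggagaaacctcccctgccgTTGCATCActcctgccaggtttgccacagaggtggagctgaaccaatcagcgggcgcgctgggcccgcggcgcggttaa
MTHFD1L, chr6:150866301-150866420, strand +: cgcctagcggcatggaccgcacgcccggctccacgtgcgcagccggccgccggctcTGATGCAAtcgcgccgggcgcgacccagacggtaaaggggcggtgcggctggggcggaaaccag
The site begins 68 bases before the start in ASNS, 209 in CHAC1 and 129 in MTHFD1L. MTHFD1L, the mitochondrial formate-producing enzyme, rose by a log2 change of 0.85. Of the regulators with a window, 3 of 18 held the motif, of the transporters 0 of 16, of the serine and one-carbon enzymes 1 of 11, of the asparagine, glutamate and proline enzymes 2 of 9 (ASNS and GOT1, which was not called) and of the tRNA synthetases 2 of 12, against 1.303% of all tested genes with a window and 3.19% of all windows in the table.

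**Figure D2:**
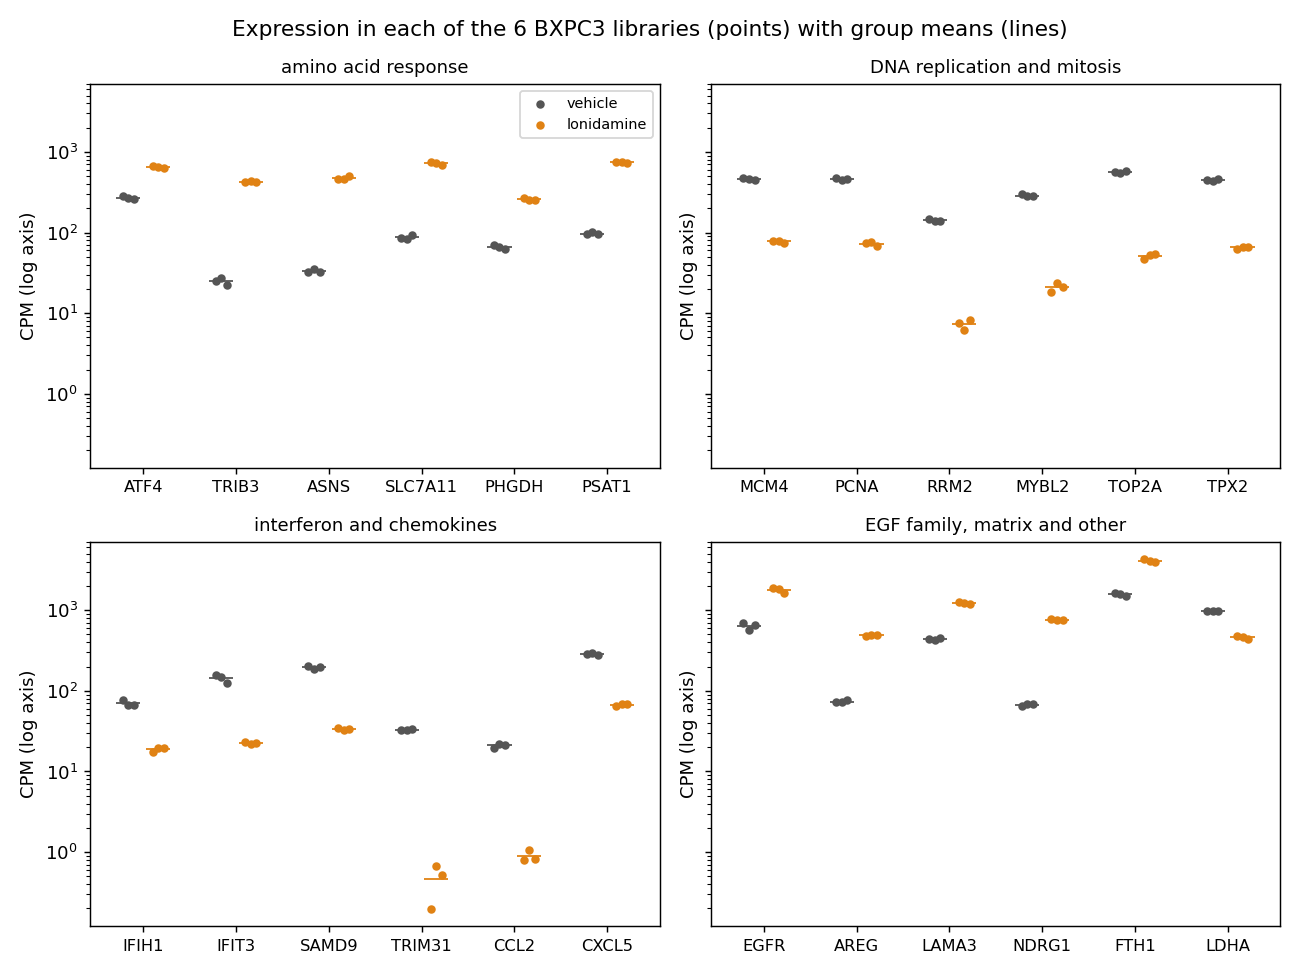
CPM on a log axis for 24 genes in each of the 6 libraries, 3 points a group with a line at the group mean, vehicle in grey and lonidamine in orange. In all 24 genes the 3 lonidamine libraries lie on 1 side of the 3 vehicle libraries. For TRIB3, for example, they lie at 424 to 437 CPM against 22.1 to 27.3 CPM. The 24 genes are a selection from the called genes, so their separation is not a test. Among all tested genes the lonidamine libraries were all higher for 35.7% and all lower for 33.4%.

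Of 25 tested mTORC1 regulators 9 rose and 4 fell, a share of risers close to that of all tested genes (34.8%) and fewer falls than among them (32.7%). EIF4EBP1, which encodes the translation repressor 4E-BP1, went from 52.3, 52.7 and 52.2 CPM to 168, 177 and 158 CPM (log2 1.68 ± 0.05, adjusted p = 4.2e-21), and the small GTPase RRAGD rose by 1.35 ± 0.14. In the list of MondoA, a glucose-sensing transcription factor, 4 of 8 rose and 1 fell: the arrestin ARRDC4 went from 8.17, 10.4 and 9.94 to 60.6, 58.98 and 56.8 CPM. ER chaperone genes did not share a direction (11 of 23 rose, 11 fell). The stress sensor ERN1 and its target XBP1 rose from 25.2, 26.01 and 28.4 to 94.7, 91.7 and 87.2 CPM and from 72.6, 69.6 and 75.2 to 189, 190.3 and 190.3 CPM, while the abundant calcium-binding chaperone calreticulin (CALR) fell from 1443, 1411 and 1405 to 747, 733 and 715 CPM. Heat shock chaperones were likewise divided, with 6 of 18 higher and 8 lower, against 34.8% and 32.7% of all tested genes. Every change was under 2-fold. In the autophagy list 14 of 22 rose and 0 fell. The initiating kinase ULK1 went from 19.6, 19.01 and 20.3 to 48.03, 52.9 and 53.8 CPM (log2 1.39 ± 0.08), the membrane marker gene MAP1LC3B from 83.6, 86.5 and 87.96 to 204, 208 and 199.98 CPM and the cargo receptor SQSTM1 from 452, 456 and 422 to 949, 919 and 964 CPM (log2 1.09 ± 0.03). Of 31 proteasome subunits 25 fell and 0 rose, all by less than 2-fold, PSMC3 by a log2 change of -0.76 ± 0.05.

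Cytosolic ribosomal protein genes rose slightly, 44 of 54 with 4 falling and a median log2 change of 0.19. RPL10 read 945, 940.5 and 913 CPM with vehicle and 1309, 1299 and 1292 CPM with lonidamine (log2 0.48 ± 0.03). These genes have many processed pseudogene copies that reads can be split with. Genes of ribosome biogenesis did not follow them, with 7 of 29 higher and 10 lower, against 34.8% and 32.7% of all tested genes. The nucleolar factor TCOF1 went from 206, 202 and 198 to 63.3, 64.2 and 58.7 CPM, a log2 change of -1.70 ± 0.05 (adjusted p = 1.1e-21). The transcription factor MYC, known to act on ribosome biogenesis genes, went up from 167, 168 and 157 to 274, 292 and 273 CPM.

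DNA replication genes fell together. In origin licensing and the replicative helicase 0 of 26 tested members rose and 24 fell, with a median log2 change of -2.76. At the replication fork 0 of 29 tested members rose and 28 fell, with a median log2 change of -2.12. The origin recognition subunit ORC1 (chr1:52372829-52409503 in GRCh38.p14) read 53.1, 51.2 and 49.3 CPM with vehicle and 1.398, 1.07 and 1.24 CPM with lonidamine. MCM4 and MCM7 of the helicase ring read 479.8, 462 and 452 against 79.5, 79.5 and 75.2 CPM and 455, 464 and 468 against 62.01, 68.1 and 59.2 CPM. The sliding clamp gene PCNA read 469, 455 and 456 against 73.9, 76.8 and 68.5 CPM. The vehicle and lonidamine libraries were separate for each of these, and the log2 changes were -5.36 ± 0.15 (adjusted p = 1.6e-21), -2.57 ± 0.04, -2.87 ± 0.05 and -2.65 ± 0.05 (adjusted p = 1.6e-25). UHRF1, which copies DNA methylation behind the fork, and the checkpoint adaptor CLSPN fell by log2 changes of -3.96 ± 0.07 and -4.37 ± 0.11. Nucleotide synthesis was more selective, with 19 of 24 lower and 2 higher. The S-phase enzymes RRM2 (-4.28), TYMS (-4.51), RRM1 (-2.98) and TK1 (-2.94) fell, RRM2 from 148, 140.3 and 141 to 7.59, 6.12 and 8.34 CPM, while the p53-induced ribonucleotide reductase subunit RRM2B rose from 25.5, 24.7 and 27.5 to 42.8, 46.7 and 47.2 CPM and the purine enzyme GART by 0.16 ± 0.04. In homologous recombination and Fanconi repair 24 of 28 fell and 1 rose (median -2.71), BRCA1 from 88.7, 82.1 and 91.8 to 11.98, 11.8 and 13.3 CPM. The nuclease subunit MUS81 was the 1 that rose (log2 0.71 ± 0.07).

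E2F sites, which are known to place these genes under RB control, were sought as TTTNGCGC on both strands in the 250 bases before each start. The motif was in 4 of 23 windows of the licensing list and 5 of 25 of the fork list, against 2.46% of tested genes and 1.54% of all windows. Of the called members that hold the motif, the 3 with the smallest adjusted p are shown, with the motif in capitals.
MCM7, chr7:100101398-100101517, strand -: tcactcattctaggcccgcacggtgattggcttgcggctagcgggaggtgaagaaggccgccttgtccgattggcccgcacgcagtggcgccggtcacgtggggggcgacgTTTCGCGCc
MCM6, chr2:135876466-135876585, strand -: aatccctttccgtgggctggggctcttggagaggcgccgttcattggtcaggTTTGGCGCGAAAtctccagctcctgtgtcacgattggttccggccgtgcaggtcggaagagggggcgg
POLE, chr12:132687343-132687462, strand -: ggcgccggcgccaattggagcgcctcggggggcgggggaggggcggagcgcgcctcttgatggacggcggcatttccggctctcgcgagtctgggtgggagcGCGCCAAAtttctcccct
MCM6 holds 4 matches in its window, of which 2 lie in the bases shown, and in MCM7 and POLE the match begins 9 and 18 bases before the start. Members of the fork list with the motif had a median log2 change of -2.18 (5 genes) and those without it -2.16 (20 genes). No match says only that these letters are not in this window.

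Genes of mitosis fell as well. In the spindle, checkpoint and mitotic kinase list 38 of 38 fell (median -2.85), and in the kinetochore and centromere list 32 of 32 (median -2.49). In condensin, cohesin and chromosome structure 22 of 24 fell and 0 rose. TPX2, which activates the Aurora A kinase, read 450.0, 439.7 and 458 CPM with vehicle and 63.4, 65.98 and 67.1 CPM with lonidamine, and topoisomerase II alpha (TOP2A) read 563, 549 and 578 against 46.7, 52.6 and 54.3 CPM. The cytokinesis scaffold ANLN read 395, 424 and 440.3 against 39.1, 41.98 and 41.3 CPM. The ranges did not meet, and the log2 changes were -2.78 ± 0.04 (adjusted p = 1.0e-26), -3.46 ± 0.05 and -3.36 ± 0.05. Among regulators, 11 of 19 E2F and DREAM genes fell and 3 rose: E2F1 went from 49.01, 45.1 and 44.8 to 4.19, 3.21 and 4.32 CPM, MYBL2 from 297, 282 and 281 to 18.6, 23.9 and 20.9 CPM and FOXM1 from 296, 269 and 284 to 51.3, 58.1 and 48.6 CPM, while the repressor-type factor E2F5 rose from 13.3, 11.1 and 13.3 to 26.3, 23.6 and 24.6 CPM. Of 26 cyclins, CDKs and inhibitors 19 fell and 3 rose. The mitotic cyclin and kinase CCNB1 and CDK1 had log2 changes of -2.73 ± 0.05 and -3.49 ± 0.07. The CDK inhibitor p21 (CDKN1A) rose from 169.5, 175 and 164 to 562, 572 and 565 CPM (log2 1.74 ± 0.04), CDC25B by 0.41 ± 0.04 and cyclin D1 (CCND1) by 0.12 ± 0.03.

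The cell cycle homology region, TTTGAA, is the short element known to be bound by the DREAM and MMB complexes in late cell cycle genes. It was in 17 of 31 windows of the spindle and kinase list and 5 of 26 of the kinetochore list, against 8.305% of tested genes and 13.6% of all windows. A CCAAT box lay in 26 of 31 windows of the spindle and kinase list, against 35.3% of tested genes. Of the called members of both lists that hold TTTGAA, the 3 with the smallest adjusted p are shown as examples. The element or its reverse complement is in capitals.
ANLN, chr7:36389742-36389861, strand +: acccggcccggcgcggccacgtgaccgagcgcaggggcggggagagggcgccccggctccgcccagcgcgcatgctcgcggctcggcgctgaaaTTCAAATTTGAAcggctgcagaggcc
PRC1, chr15:90994536-90994655, strand -: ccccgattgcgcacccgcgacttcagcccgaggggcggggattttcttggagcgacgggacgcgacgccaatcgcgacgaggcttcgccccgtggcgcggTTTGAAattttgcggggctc
CDC20, chr1:43358859-43358978, strand +: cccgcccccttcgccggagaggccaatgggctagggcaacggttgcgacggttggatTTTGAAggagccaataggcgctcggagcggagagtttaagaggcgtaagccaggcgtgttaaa
ANLN holds 2 matches on opposite strands, beginning 20 and 26 bases before the start, PRC1 holds 1 at 20, and the match shown in CDC20, 1 of 2 in its window, begins at 65. PRC1, which bundles spindle microtubules, and CDC20, the activator of the anaphase-promoting complex, had log2 changes of -3.04 ± 0.06 and -2.67 ± 0.05.

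Of 21 tested p53 target genes 13 rose and 4 fell, a list in which CDKN1A, SESN2 and RRM2B also belong to other groups above. The death receptor TNFRSF10B read 163, 169.6 and 169.9 CPM with vehicle and 297, 301 and 313 CPM with lonidamine (log2 0.86 ± 0.04), while the receptor FAS and the repair gene DDB2 fell, DDB2 from 45.01, 45.9 and 45.3 to 14.98, 13.7 and 19.3 CPM. In the BCL2 family and death receptor list 11 of 23 rose and 7 fell. The survival genes BCL2L1 and BCL2L2 rose by 0.73 ± 0.03 and 0.89 ± 0.06, and the inhibitor of apoptosis BIRC3 fell from 88.2, 95.8 and 92.8 to 45.4, 40.6 and 43.6 CPM.

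Interferon-stimulated genes fell. Of 43 tested effectors 42 fell and 0 rose, with a median log2 change of -1.86, and 34 fell at least 2-fold. The antiviral synthetase OAS3 read 271, 215 and 229 CPM with vehicle and 22.1, 22.7 and 24.2 CPM with lonidamine, and the antiviral factor SAMD9 read 204, 187 and 198 against 35.05, 32.5 and 33.7 CPM. TRIM31, a ubiquitin ligase, read 32.8, 32.3 and 34.00 against 0.1997, 0.6802 and 0.515 CPM. The groups were separate in all 3, with log2 changes of -3.37 ± 0.10 (adjusted p = 1.1e-20), -2.54 ± 0.06 (adjusted p = 2.6e-22) and -6.11 ± 0.20 (adjusted p = 5.1e-20). Of 22 sensors and transcription factors of the pathway 15 fell and 4 rose. The RNA sensors DDX58 (RIG-I) and IFIH1 (MDA5) fell from 80.6, 77.6 and 71.6 to 22.97, 20.9 and 18.01 CPM and from 76.03, 66.4 and 67.1 to 17.3, 19.4 and 19.5 CPM. Their adaptor MAVS rose by 0.62 ± 0.04 and STAT2 by 0.27 ± 0.04. In HLA class I and antigen processing 12 of 16 fell and 2 rose: the peptide pump TAP1 went from 73.6, 74.9 and 69.7 to 36.4, 32.9 and 31.8 CPM and B2M from 1809, 1722 and 1689 to 1348, 1355 and 1327 CPM, whereas HLA-E rose by 0.28 ± 0.04. HLA genes share near-identical sequence, so their reads may be split between copies.

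The interferon response motif GAAANNGAA, the core of the site known from interferon-induced promoters, was in 22 of 35 windows of the effector list, against 5.41% of tested genes and 7.06% of all windows. The 3 members with the smallest adjusted p that hold it are shown, with the motif in capitals.
SAMD9, chr7:93118052-93118171, strand -: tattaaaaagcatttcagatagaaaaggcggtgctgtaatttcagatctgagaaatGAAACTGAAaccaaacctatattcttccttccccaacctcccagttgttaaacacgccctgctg
OAS3, chr12:112938354-112938473, strand +: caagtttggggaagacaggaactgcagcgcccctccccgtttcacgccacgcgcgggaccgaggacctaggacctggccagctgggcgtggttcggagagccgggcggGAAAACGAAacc
IFI44L, chr1:78620319-78620438, strand +: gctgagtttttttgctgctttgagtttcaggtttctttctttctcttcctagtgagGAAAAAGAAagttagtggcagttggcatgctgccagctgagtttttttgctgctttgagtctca
The match shown begins 136 bases before the start in SAMD9, 12 in OAS3 and 73 in IFI44L. The 22 effectors with the motif had a median log2 change of -1.66 and the 13 without it -2.31.

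Chemokine, cytokine and NF-kB genes mostly fell. Of 31 chemokines and cytokines 22 fell and 7 rose (median -0.76). The monocyte attractant CCL2 read 19.6, 22.2 and 21.6 CPM with vehicle and 0.799, 1.07 and 0.823 CPM with lonidamine, the neutrophil attractants CXCL1 and CXCL5 168, 161 and 168 against 45.6, 49.3 and 47.3 CPM and 288, 298 and 279 against 64.4, 68.8 and 68.9 CPM, and the death ligand TNFSF10 (TRAIL) 72.8, 70.7 and 65.5 against 5.99, 6.32 and 4.73 CPM. No lonidamine library reached the vehicle range. The interleukin-1 genes went the other way: IL1B rose from 128, 136 and 144 to 297, 301 and 285 CPM and IL1A by 0.87 ± 0.04 on the log2 scale. In the NF-kB list 13 of 17 fell and 2 rose. TNFAIP2 went from 529, 533 and 487 to 124, 121 and 119 CPM and the inhibitor NFKBIA from 139, 157 and 146 to 85.3, 84.7 and 77.7 CPM, and the subunit gene RELA rose by 0.32 ± 0.04. The other riser, NFKBIZ, had overlapping groups (49.6, 56.9 and 63.6 against 56.8, 65.5 and 87.9 CPM), and without lonidamine replicate 3, without vehicle replicate 1 or under DESeq2 it was not called.

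Many genes of EGF signalling and ERK feedback rose. Of 11 tested EGF receptors, ligands and their regulators 7 rose and 2 fell. The ligand amphiregulin (AREG) went from 71.8, 72.8 and 76.4 CPM to 481, 496 and 492 CPM, a log2 change of 2.73 ± 0.04 (adjusted p = 3.1e-27). The receptor EGFR went from 695, 566 and 662 to 1873, 1851 and 1615 CPM (log2 1.47 ± 0.06), HBEGF from 105, 109 and 105 to 297, 299.7 and 288 CPM and the receptor inhibitor ERRFI1 from 242, 258 and 250.3 to 632, 637 and 650.1 CPM. The inhibitor LRIG1 and the ligand BTC fell, LRIG1 from 80.6, 80.5 and 78.02 to 44.1, 38.3 and 38.6 CPM. In the ERK feedback list 14 of 18 rose and 1 fell (median 0.68): the phosphatases DUSP5 and DUSP6 rose by 1.32 ± 0.04 and 0.85 ± 0.04, SPRY4 went from 19.1, 18.8 and 20.9 to 66.00, 63.6 and 66.5 CPM and its relative SPRY1 fell by 1.54 on the log2 scale. Immediate early factors were mixed, with 12 of 22 higher and 6 lower. FOSL1 and KLF4 rose by 0.67 ± 0.04 and 1.51 ± 0.05, while EGR1 went from 26.9, 26.6 and 24.6 to 13.4, 12.3 and 11.6 CPM and JUN from 74.7, 77.9 and 75.6 to 54.2, 59.5 and 50.2 CPM. In the list of YAP targets 14 of 19 rose and 3 fell, all rises staying under 2-fold. AXL went from 448, 453 and 460.5 to 807, 793 and 749.6 CPM. TGFB2 fell from 87.4, 92.6 and 92.2 to 32.7, 31.00 and 36.4 CPM. The YAP target CTGF was lower too, with log2 changes of -0.77 to -0.41 over the 11 alternatives.

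In the TGF-beta and BMP list 14 of 24 fell and 7 rose: BMP4 went from 43.01, 44.4 and 42.2 CPM to 10.1, 9.52 and 12.9 CPM and TGFBI from 561, 559.6 and 549.8 to 299, 316 and 300.3 CPM, while INHBA, the activin subunit, rose from 56.5, 59.5 and 62.2 to 164, 162 and 152 CPM. The insulin-like growth factor system had 5 of 10 higher and 4 lower, and the 4 that fell were binding proteins. IGFBP5 read 251, 242 and 268 CPM with vehicle and 21.5, 22.3 and 20.9 CPM with lonidamine (log2 -3.55 ± 0.07, adjusted p = 4.0e-24), and IGFBP6 (-1.61), IGFBP2 (-1.31) and IGFBP4 (-1.11) fell as well. The adaptor IRS2 rose by 1.10 ± 0.07. Of 23 Notch and Wnt genes 6 rose and 11 fell, with the ligand gene JAG1 at 0.57 ± 0.04 and WNT10A at -1.92 ± 0.09 on the log2 scale.

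**Figure D3:**
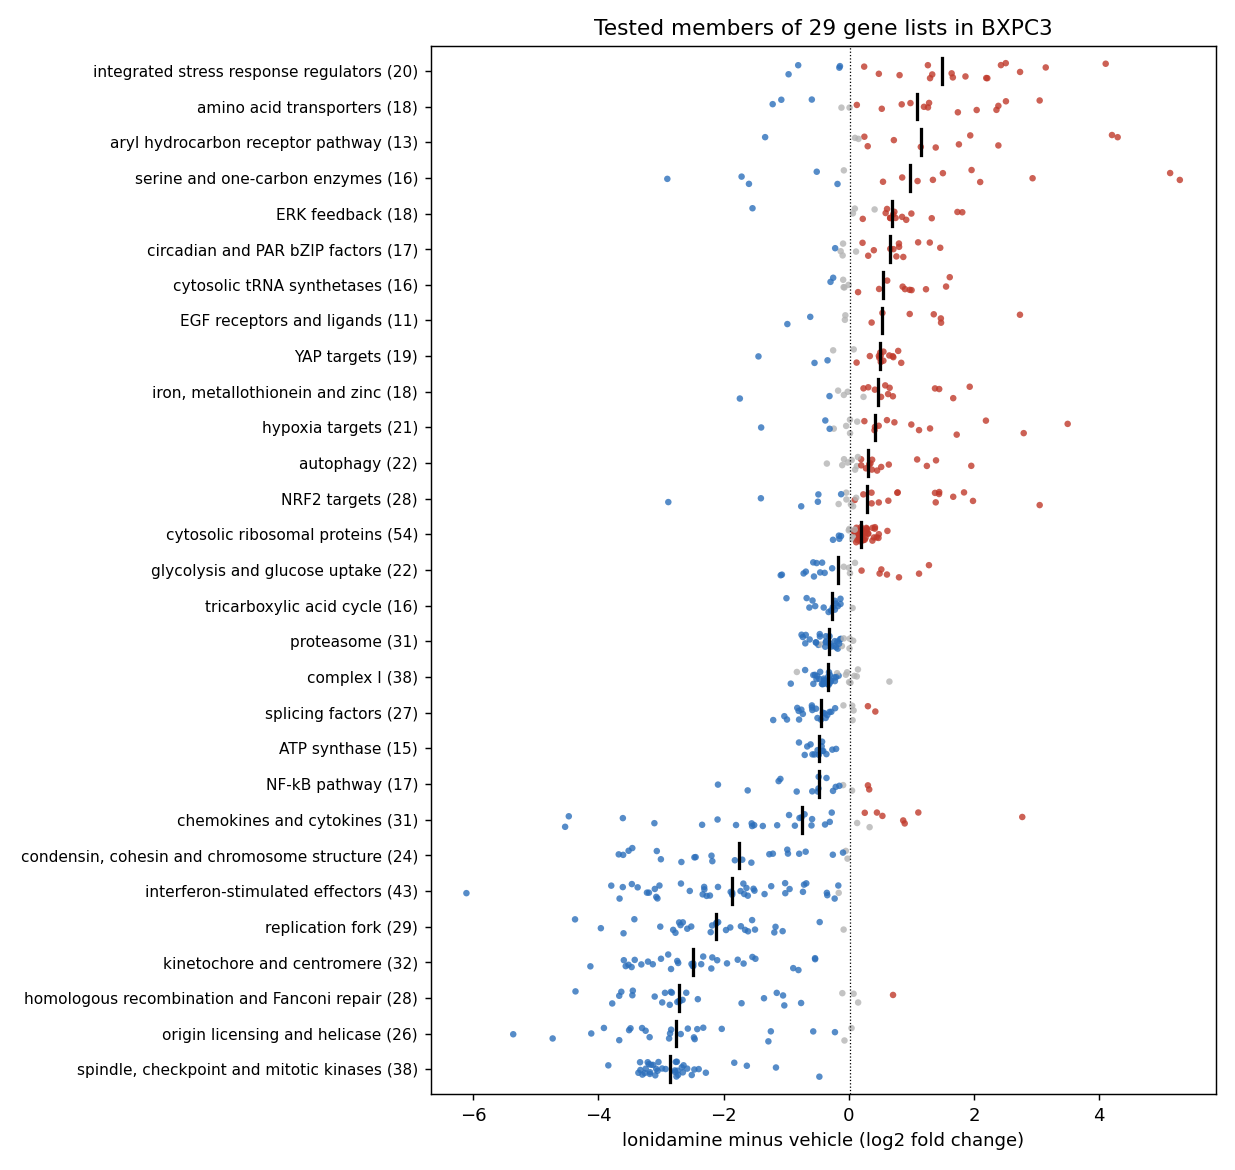
Log2 fold change of lonidamine over vehicle (horizontal axis) for each tested member of 29 gene lists, with the number tested after each name. Red points rose, blue points fell and grey points were not called. The black bar is the list's median and the dotted line the median of all tested genes (0.03). The integrated stress response list has the highest median shown (1.49) and the spindle list the lowest (-2.85).

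Epithelial structure genes shifted within families. Of 16 tested keratins 6 rose and 10 fell. At least 2-fold, 3 keratins rose and 4 fell. The simple-epithelial keratins KRT7, KRT8 and KRT19 had log2 changes of -0.69 ± 0.03, -0.50 ± 0.03 and -0.81 ± 0.04. KRT13 fell further, with log2 changes of -2.597 to -2.49 over the 11 alternatives. The stress- and basal-type keratins KRT17, KRT16 and KRT6A rose, KRT17 from 1551, 1499.9 and 1377 to 3894, 3939 and 3625 CPM, KRT16 from 2.52, 3.17 and 2.93 to 28.6, 26.4 and 24.1 CPM and KRT6A from 785, 774 and 749 to 1302, 1389 and 1260.4 CPM. KRT6, KRT16 and KRT17 have near-identical copies, so their split is uncertain. Among 24 junction genes 13 rose and 4 fell: the desmosomal cadherins DSG3 and DSC2 rose by 1.23 ± 0.05 and 1.03 ± 0.09 and the tight junction gene TJP3 fell by 1.74. E-cadherin (CDH1) read 546, 502 and 535 CPM against 578, 575 and 536 CPM with overlapping groups, and its small rise (0.09 ± 0.04, adjusted p = 0.036) was lost under 8 of the 11 alternatives, DESeq2 and the replicate block included. In the mucin and secreted protein list 4 of 23 rose and 12 fell. S100P went from 31.5, 33.1 and 28.5 to 226, 216 and 207 CPM (log2 2.80 ± 0.06), and the iron-siderophore binder LCN2 and the adhesion protein CEACAM6 from 449, 431 and 404 to 200.4, 193 and 189.9 CPM and from 215, 216 and 212 to 66.8, 58.5 and 69.7 CPM.

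In the list of integrins, laminins and collagens 13 of 24 rose and 6 fell. The laminin chain LAMA3, which helps to anchor basal epithelium, went from 441, 431 and 447 CPM to 1252, 1237 and 1178 CPM, and its receptor chain ITGA3 from 1020.0, 956 and 974 to 2172, 2214 and 2116 CPM. Log2 changes were 1.47 ± 0.04 and 1.14 ± 0.03. The integrin chains ITGB6 and ITGB8, known to release active TGF-beta, fell from 137, 143 and 148 to 29.4, 23.8 and 35.2 CPM and from 167, 167 and 179.7 to 46.9, 50.3 and 45.8 CPM. Of 34 proteases and serpins 14 rose and 11 fell, near the shares of all tested genes (34.8% and 32.7%). The collagenase MMP1 rose by 1.60 ± 0.05 and SERPINB2 by 1.76 ± 0.04. Tissue plasminogen activator (PLAT) went from 174, 167 and 158 to 20.2, 20.1 and 18.1 CPM and MMP7 from 40.1, 40.4 and 35.7 to 5.99, 6.899 and 6.999 CPM. In complement and coagulation 9 of 16 fell and 4 rose, with the complement regulator CD55 at 1.40 ± 0.04. The ductal and endoderm transcription factors FOXA1 and ELF3 fell from 65.9, 64.9 and 64.3 to 8.79, 8.75 and 7.72 CPM and from 53.01, 52.7 and 48.6 to 8.89, 6.996 and 10.5 CPM, SOX2 from 23.03, 22.4 and 20.9 to 5.19, 3.98 and 5.76 CPM, while SOX9 and TP63 rose by 0.49 ± 0.05 and 0.42 ± 0.04. In that list 7 of 16 rose and 4 fell, against 34.8% and 32.7% of all tested genes.

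Lipid genes were divided. In cholesterol synthesis 10 of 25 rose and 11 fell, against 34.8% and 32.7% of all tested genes. All changes were under 2-fold, with the enzyme FDPS lower (-0.73 ± 0.04). In fatty acid synthesis and storage 15 of 26 rose and 6 fell: the desaturase gene SCD went from 1632, 1559 and 1616 CPM to 2475, 2399.8 and 2359 CPM, the desaturase-family gene FADS3 from 22.3, 24.7 and 22.7 to 88.1, 92.8 and 94.6 CPM and the droplet coat PLIN2 from 13.5, 11.7 and 12.3 to 31.4, 28.6 and 30.3 CPM. Fatty acid oxidation had 4 of 21 higher and 8 lower. The nuclear receptor PPARA went from 20.2, 20.2 and 23.2 to 86.6, 79.8 and 75.6 CPM and the lipase inhibitor ANGPTL4 from 3.22, 2.61 and 3.64 to 23.7, 20.2 and 22.1 CPM, while the oxidation enzyme HADH fell from 79.3, 71.8 and 81.8 to 27.8, 31.6 and 30.8 CPM.

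Many redox and iron genes rose. Of 28 NRF2 targets 16 rose and 6 fell. Thioredoxin reductase (TXNRD1) went from 195, 192 and 212 CPM to 737, 723 and 685 CPM (log2 1.84 ± 0.04, adjusted p = 1.2e-23) and NQO1 from 98.8, 92.1 and 95.7 to 256, 256 and 238 CPM, but the aldo-keto reductase AKR1B10 and glutathione peroxidase 2 (GPX2) fell, AKR1B10 from 18.6, 18.3 and 16.5 to 2.995, 1.94 and 2.26 CPM. Both ferritin chains, which store iron, rose alike: FTH1 from 1655, 1582 and 1511 to 4271, 4106 and 3948 CPM and FTL from 1230.3, 1158 and 1140.0 to 3247, 3299.8 and 3048 CPM. Both have pseudogene copies. In the iron, metallothionein and zinc list 12 of 18 rose and 2 fell. Hypoxia targets rose in 13 of 21 cases and fell in 3, with 6 rises and 1 fall of at least 2-fold. NDRG1 went from 64.1, 69.1 and 69.3 to 775, 748 and 760.1 CPM (log2 3.50 ± 0.04, adjusted p = 1.5e-29). The angiogenic factor VEGFA went from 160.1, 176 and 169 to 512, 526 and 632 CPM. EGLN3 fell, with log2 changes of -1.693 to -1.12 over the 11 alternatives. EPAS1 (HIF-2 alpha) was higher by 0.998 ± 0.04 and HIF1A lower (log2 -0.31 ± 0.03).

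Of 13 tested genes of the aryl hydrocarbon receptor, a sensor of planar aromatic compounds, 10 rose and 1 fell, with a median log2 change of 1.15. CYP1A1, the receptor's best known target (chr15:74719542-74725528 in GRCh38.p14), read 1.82, 1.86 and 1.69 CPM with vehicle and 37.9, 35.5 and 32.6 CPM with lonidamine, and CYP1B1 read 23.6, 23.5 and 21.5 against 86.97, 87.9 and 88.2 CPM. Both groups were separate, with log2 changes of 4.29 ± 0.15 (adjusted p = 3.1e-19) and 1.94 ± 0.06 (adjusted p = 5.9e-20). ALDH3A1, listed for the same receptor, fell from 206, 204 and 189.6 to 84.5, 75.3 and 77.6 CPM. The xenobiotic response core GCGTG, 5 bases long, was in 6 of 11 windows of this list and in 45.4% of tested genes and 31.9% of all windows. The 3 called members with the smallest adjusted p that hold it are shown with the core in capitals.
SLC7A5, chr16:87869619-87869738, strand -: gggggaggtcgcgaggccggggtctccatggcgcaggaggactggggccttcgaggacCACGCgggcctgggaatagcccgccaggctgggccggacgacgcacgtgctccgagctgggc
CYP1A1, chr15:74725529-74725648, strand -: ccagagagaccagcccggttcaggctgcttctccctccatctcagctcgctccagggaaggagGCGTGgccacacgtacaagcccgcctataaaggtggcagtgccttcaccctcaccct
TIPARP, chr3:156674390-156674509, strand +: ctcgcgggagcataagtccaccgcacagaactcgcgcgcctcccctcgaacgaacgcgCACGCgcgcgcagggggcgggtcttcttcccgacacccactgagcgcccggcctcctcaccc
The core begins 57 bases before the start in CYP1A1, 173 in SLC7A5 and 142 in TIPARP, which encodes a repressor of the receptor.

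In the vitamin D and retinoid list 7 of 20 rose and 11 fell, 8 of them at least 2-fold. The retinal reductase DHRS3, a retinoic acid target, read 154, 148 and 137 CPM with vehicle and 10.1, 11.7 and 12.04 CPM with lonidamine (log2 -3.70 ± 0.08, adjusted p = 4.5e-24). STRA6, the retinol-binding protein receptor, had 112 reads over the vehicle libraries and 0 with lonidamine, at least 33.5-fold lower against a floor of 3 counts over the group. VDR, the vitamin D receptor, rose slightly (0.47 ± 0.05), whereas CYP24A1 fell, with log2 changes of -7.115 to -6.214 over the 11 alternatives. Circadian genes rose in 12 of 17 cases and fell in 1: NR1D1 went from 19.3, 14.8 and 15.3 to 42.3, 44.5 and 34.3 CPM and RORA from 9.99, 8.39 and 9.85 to 26.8, 24.8 and 26.3 CPM. Of 27 splicing factors 21 fell and 2 rose (median -0.45), SRSF2 from 240.0, 245 and 239 to 101, 97.9 and 114 CPM and HNRNPA2B1 from 1219, 1283 and 1283 to 705, 718 and 758 CPM.

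Among snoRNA host genes and long RNAs 9 of 18 rose and 2 fell. GAS5, whose introns hold small nucleolar RNAs, went from 57.3, 56.8 and 54.5 CPM to 119, 133 and 136 CPM and SNHG5 from 66.9, 64.1 and 67.7 to 139.8, 128 and 129 CPM. The list summed to 864 to 927 CPM with vehicle, 1680 and 1683 CPM in lonidamine replicates 1 and 2 and 2752 CPM in replicate 3. Most of the excess lay in the nuclear RNA MALAT1, at 345, 297 and 278 CPM with vehicle and 763, 757 and 1428 CPM with lonidamine. Its log2 change was 1.68 ± 0.19 (adjusted p = 1.3e-08) with all libraries and 1.31 without lonidamine replicate 3, so 1 library carries part of it.

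Beyond these lists, the largest rises and falls at a mean log2 CPM of at least 2 included genes of other kinds. OSCAR, an immunoglobulin-like collagen receptor of osteoclasts, read 0.348, 0.093 and 0.266 CPM with vehicle and 22.6, 21.5 and 24.2 CPM with lonidamine, the largest rise by this rule, with 8 reads in all in the vehicle libraries. The peptide hormone gene ADM2 read 2.26, 2.33 and 1.42 against 50.7, 51.02 and 48.4 CPM. SLC16A14, an orphan member of the monocarboxylate transporter family, read 1.74, 2.42 and 1.69 against 15.7, 14.3 and 15.03 CPM (log2 2.94 ± 0.16, adjusted p = 4.0e-15). All 3 had separate groups. TMEM45B and MFAP3L rose by 2.96 ± 0.13 and 2.90 ± 0.17, and MSC-AS1 by 3.10 ± 0.33, an antisense RNA whose reads cannot be told from those of MSC since strand use in counting is not given. Among the falls, the lysyl oxidase LOXL4, a collagen cross-linker, went from 215, 208 and 206 to 7.39, 6.12 and 6.59 CPM (log2 -4.97 ± 0.08, adjusted p = 1.4e-26), and the replication-linked protease FAM111B from 109, 114 and 117 to 1.897, 1.55 and 2.98 CPM. WDR76, PCLAF and DTL, all tied to DNA replication or repair, had log2 changes of -4.58 ± 0.13, -4.53 ± 0.18 and -4.23 ± 0.11. The methyltransferase-like gene METTL7A and the interferon-induced GTPase GBP4 had -4.47 ± 0.13 and -4.41 ± 0.15.

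**Figure D4:**
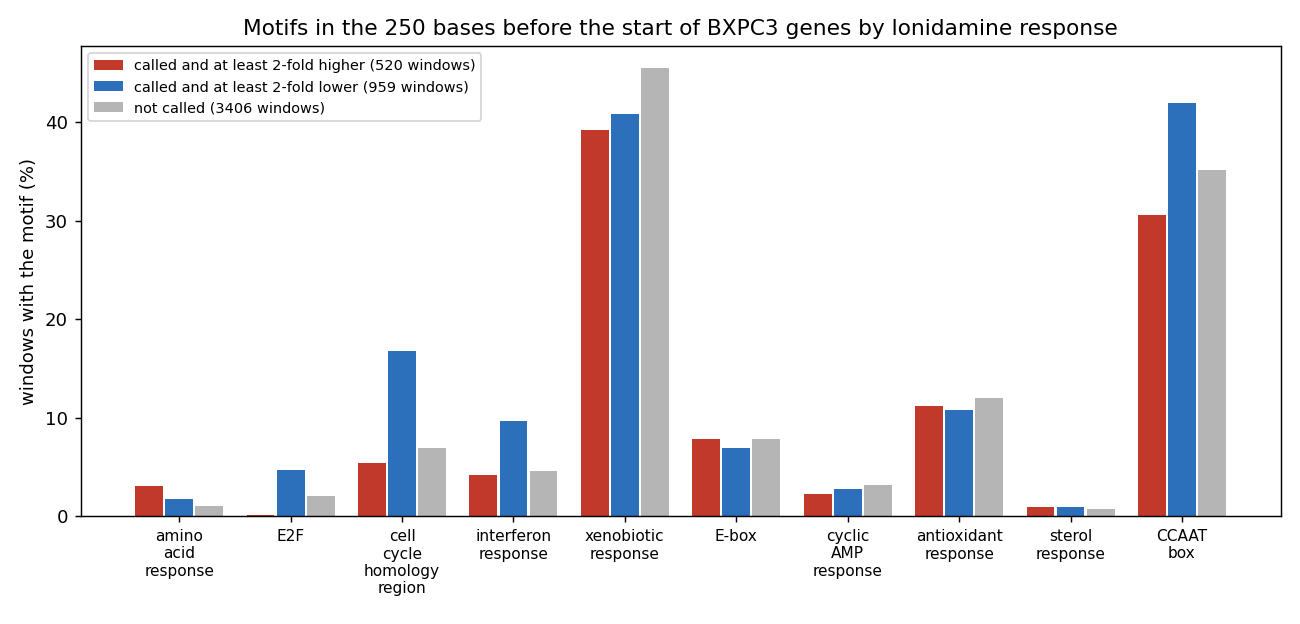
Share of genes (vertical axis, percent) whose 250 bases before the start hold each of 10 motifs, for genes at least 2-fold higher (red, 520 windows), at least 2-fold lower (blue, 959 windows) and not called (grey, 3406 windows). The cell cycle homology region is in 16.8% of lower genes and the interferon motif in 9.698%, and the amino acid response motif in 3.08% of higher genes.

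Across all genes, 10439 of 12920 tested genes had a promoter window, of which 520 rose and 959 fell at least 2-fold. The cell cycle homology region was in 16.8% of windows of the genes that fell, in 5.38% of those that rose and in 6.900% of genes not called. For the E2F motif the shares were 4.69%, 0.192% and 2.03%, and for the interferon motif 9.698%, 4.23% and 4.64%. The amino acid response motif was in 3.08% of windows of genes that rose, 1.77% of those that fell and 1.03% of those not called. The CCAAT box was in 41.9% of the lower, 30.6% of the higher and 35.1% of the genes not called. The xenobiotic response core was in 39.2% of the higher, 40.8% of the lower and 45.4% of the genes not called. The E-box CACGTG, the cyclic AMP response TGACGTCA, the antioxidant response TGACNNNGC and the sterol response TCACNCCAC differed by less than 2 percentage points between the groups. Median GC content of the windows was 66.2% for genes that rose, 61.6% for genes that fell and 64.4% for those not called, and its part in these shares was not tested. A match is a description of the letters and not of binding.

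The same treatment in PANC1 called 4381 of 12514 tested genes as higher (35.0%) and 4278 as lower (34.2%). In a model of both lines together, the lonidamine response was more positive in PANC1 than in BXPC3 for 3277 of 13930 genes (23.5%) and more negative for 2540 (18.2%). Which direction held more genes turned under DESeq2's scaling and test: its size factors gave 2815 more positive and 2954 more negative, and its test 2592 and 2733. Of 11538 genes tested in both lines, 6008 were called in both, 5126 of them in the same direction. Opposite directions with a called difference were found for 532 genes that rose in BXPC3 and fell in PANC1 and 350 the reverse, 38 of them at least 2-fold in both. Of the interferon effectors, 29 of 43 had a called, more positive response in PANC1 and 0 a more negative one, with a median log2 change of -1.86 in BXPC3 and -0.24 in PANC1. SAMD9L, for example, went from 57.00, 46.7 and 49.8 to 4.19, 3.401 and 4.53 CPM in BXPC3 and had a log2 change of 0.33 in PANC1 (difference 4.03 ± 0.52, adjusted p = 4.2e-08). The median of the fork list was -2.12 in BXPC3 and -1.31 in PANC1, and that of the spindle list -2.85 and -1.75. There, 28 of 29 fork genes and 36 of 38 spindle genes had a called, more positive response in PANC1, 1 fork gene and 0 spindle genes had a more negative one, and for ORC1 the difference was 2.89 ± 0.24. In the other direction, 13 of 20 YAP targets and 29 of 54 ribosomal protein genes had a more negative response in PANC1, against 1 and 0 with a more positive one.

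Single genes set the lines apart as well. The basal laminin chain LAMA3 rose in BXPC3 and fell in PANC1, where it read 10.3, 10.5 and 9.55 CPM with vehicle and 3.696, 4.02 and 4.11 CPM with lonidamine (difference -2.80 ± 0.13). NDRG1 had a difference of -2.76 ± 0.10 and CYP1A1 one of -3.57 ± 0.51. CDKN1A rose less in PANC1, by 0.47 on the log2 scale (difference -1.24 ± 0.06). In the integrated stress response 12 of 20 genes had a called, more positive response in PANC1 and 2 a more negative one, SESN2 being more positive by 1.72 ± 0.11 and ATF3 by 1.61 ± 0.16.

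**Figure D5:**
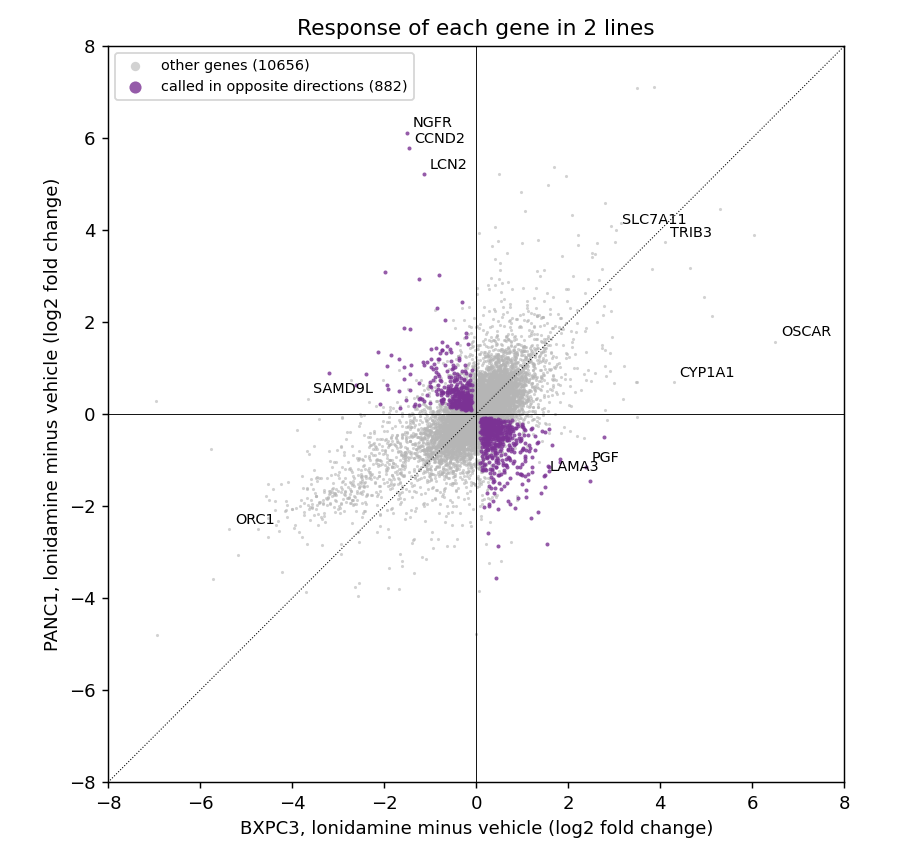
Log2 fold change of lonidamine over vehicle in PANC1 (vertical axis) against that in BXPC3 (horizontal axis), 1 point for each of 11538 genes tested in both lines, with the line of equal change dotted. The 882 purple genes were called in opposite directions with a called difference, NGFR, CCND2 and LCN2 farthest from the dotted line.

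Set directly against SR4 in the same line, lonidamine gave higher expression of 3060 genes (23.7%) and lower expression of 2973 (23.0%) of 12920. Doses differed (300 uM and 5 uM), so these are differences between the 2 treated groups as given and not between matched doses. CYP1A1 read 37.9, 35.5 and 32.6 CPM with lonidamine and 1.38, 2.34 and 2.27 CPM with SR4, and CYP1B1 86.97, 87.9 and 88.2 against 5.43, 6.001 and 4.71 CPM. The log2 differences were 4.15 ± 0.15 (adjusted p = 5.4e-18) and 4.03 ± 0.08, and 10 of 13 genes of that receptor's list were higher with lonidamine. The squamous and secreted genes SPRR2E, PI3 and SERPINB2 were higher by 2.57 ± 0.11, 2.54 ± 0.06 and 2.49 ± 0.04, and the matrix glycoprotein THBS1 by 2.15 ± 0.04. SPRR2E belongs to a cluster of near-identical copies. Interferon effectors were lower with lonidamine in 39 of 43 cases and higher in 2 (median -1.35), TRIM31 by -4.41 ± 0.25 and IFI44L by -2.98 ± 0.11 as signed log2 differences. DHRS3 (-3.78 ± 0.08), the adhesion gene CDH6 (-2.64 ± 0.20) and the glycosyltransferase gene GALNT12 (-2.71 ± 0.10) were lower too. For the spindle list 36 of 38 genes were lower with lonidamine, whereas the integrated stress response list was divided, 5 higher and 9 lower of 20, with TRIB3 at -0.32 ± 0.04 and ATF4 at 0.34 ± 0.03.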

How the data were processed

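RNA was sequenced from mRNA libraries of 24 samples, 12 per line. The authors deposited 1 table of raw counts per gene for each line, with a length column in kilobases that served only as a description of genes. Reads were aligned with STAR 2.7.8a to GRCh38 (hg38) and handled in Partek and DESeq2, per the submitters' processing notes. For the counting program, the annotation and the use of strand, details were not given in the sources used here. All per-sample columns were used (0 left out); 1 SR4 column of BXPC3 carries no replicate number that matches a label.

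From the counts, edgeR 4.0.16 in R 4.3.3 was run: filterByExpr with a minimum count of 10, TMM scaling, and quasi-likelihood tests on the 12 BXPC3 libraries in 4 groups, which share 1 estimate of spread (8 residual degrees of freedom), for lonidamine against vehicle and against SR4. PANC1 was fitted alike, and the difference between lines in a model of 24 libraries (16 residual degrees of freedom). Benjamini-Hochberg adjustment ran over all tested genes and the threshold was 0.05. The biological coefficient of variation was 3.95% in BXPC3. An exact permutation test of 3 against 3 libraries cannot go below 0.1, so none was used. Self-tests on simulated counts were run for each fit.

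Genes were described in 71 lists with 1606 entries, of which 5 were not matched to the table and 102 were under the filter. The members and lists were chosen with earlier results of these data known. Genes named were, by rule, the 15 largest rises and falls whose mean log2 CPM reached 2 and whose groups were separate; in each list up to 5 with the smallest adjusted p and up to 3 that went against most of it; all lonidamine targets; and the 8 most positive and negative differences from PANC1 and from SR4. Other named genes (MTHFD1L, TIPARP, POLE, MCM6 and PRC1 by the promoter rule, STRA6 and CDH5 for 0 counts, PTPRC as a marker) were added. Promoters are RefSeq windows of GRCh38.p14, the first listed where a gene has several starts, matched for 10439 of 12920 tested genes. Coordinates are RefSeq's for the same build. Alternatives were DESeq2 1.42.0 (test and size factors), no filter, a replicate block, only the libraries compared, and each library left out. The floors used for genes with 0 counts cover counting error only.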

Additional observations from a re-analysis of the deposited data

Results flagged for a closer look

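For 16 genes chosen by size, the test of the difference itself, an interaction in the model of both lines, found that the lonidamine response differed between PANC1 and BXPC3; the log2 differences below are PANC1 minus BXPC3. In 4 genes, NGFR, CCND2, LCN2 and MDGA1, the lines went opposite ways and both changes were called. NGFR, the neurotrophin receptor, went from 53.9, 51.7 and 45.9 to 16.9, 19.5 and 17.2 CPM in BXPC3 and from 0.743, 0.785 and 0.777 to 40.3, 66.3 and 55.4 CPM in PANC1, a difference of 7.65 (adjusted p = 7.4e-25). CCND2, a D-type cyclin, went from 28.7, 29.1 and 31.2 to 9.69, 9.81 and 12.97 CPM and from 0.212, 0.112 and 0.111 to 7.58, 10.2 and 8.14 CPM, a difference of 7.26. LCN2 had a difference of 6.37, with 0.106, 0 and 0 CPM in PANC1 vehicle libraries and 1.94, 1.83 and 1.64 CPM with lonidamine. LAMP3, a lysosomal membrane gene, rose in both lines but far more in PANC1, from 3.93, 3.25 and 2.89 to 121, 132 and 124 CPM, a difference of 4.76. OSCAR rose in both and more in BXPC3, a difference of -4.90, with 2.97, 4.04 and 3.89 CPM rising to 11.9, 10.7 and 9.87 CPM in PANC1.

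C1orf106, MDGA1 and SORBS2 fell in PANC1. In BXPC3 MDGA1 rose, with a log2 change of 0.43, and the other two were not called. C1orf106 went from 4.88, 4.48 and 5.997 to 0.277, 0.087 and 0.164 CPM in PANC1 (difference -4.74), MDGA1 from 58.2, 63.8 and 63.9 to 6.19, 5.505 and 4.11 CPM (difference -3.96) and SORBS2 from 2.44, 1.68 and 2.67 to 0.277, 0.087 and 0.082 CPM (difference -3.89). In the other genes, and in LCN2, the level in 1 line lay near 0, so the difference rests on few reads there. LCN2 was under 2 CPM in all 6 PANC1 libraries. Some of the other differences given above rest on 1 group under 1 CPM. That group was PANC1 vehicle for NGFR and CCND2, PANC1 lonidamine for C1orf106 and SORBS2, and BXPC3 vehicle for OSCAR. BCAT1 (4.83), RAB34 (4.98) and CAPN12 (-3.53) were under 2 CPM in all 6 BXPC3 libraries. In PANC1 under 1 CPM in all 6 libraries were MAL2 (4.09), IFI16 (4.05), LTBR (-4.79), TNS4 (-4.42) and TP63 (-4.06). The differences of IFI16, MAL2 and TP63 lost their call when single PANC1 libraries were left out: IFI16 without vehicle replicate 1, 2 or 3 or lonidamine replicate 1, MAL2 without lonidamine replicate 2, and TP63 without vehicle replicate 1 or 3.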

How the results depend on the processing

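The counts of genes higher and lower with lonidamine, 4502 and 4221, ranged from 4027 to 4436 and from 4015 to 4573 over all alternatives, each within 1.5 times, and no called log2 change of a named gene changed sign, although medians of some lists did. With DESeq2's test they were 4027 and 4015, and with no filter 4387 and 4573. Leaving out each library gave 4251 to 4324 higher and 4021 to 4098 lower, a group of 2 then being taken to vary like the others. With the replicate number as a block they were 4436 and 4159, and against SR4 2543 higher and 2483 lower. The difference between lines with that block had 3189 more positive and 2469 more negative responses in PANC1. Labels do not say that replicate numbers mark a shared culture or day, and the data show no pairing: deviations of same-numbered lonidamine and vehicle libraries correlated at 0.0892, -0.116 and -0.0553 over 10856 genes, and not every sample correlated best with its own number. DESeq2's size factors moved the share of more positive responses in PANC1 from 56.33% to 48.8% of called genes, so that more negative responses then outnumbered them (2954 against 2815), and shifted medians by less than 0.1.

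Of 456 named results for lonidamine against vehicle, 442 kept their call under all alternatives. CDH1, EPCAM, LAMTOR2, MRPL10, NFKBIZ, PDK1, PER3, RPL35, RPS15, SLC1A1 and TFDP2 lost it under 1 or more, and COL1A1, MPC1 and SDHB gained one. SDHB did so under DESeq2's size factors, no filter, only the libraries compared, and without vehicle replicate 2 or lonidamine replicate 1. Of 213 list counts and medians 25 moved, counts beyond 1.5 times and medians beyond a tolerance set from the reported median. These were mostly small counts and the markers of other cell types. The cause of these changes was not tested. Genes near 0 in 1 group are limited by depth.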
